A study of Mus musculus with 16 samples.

Results

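The genes described here encode collagen chains, whichever cells make them, and further proteins of the extracellular matrix and of fibroblasts. Members were taken from the gene annotation of the array by symbol: every gene named as a numbered collagen chain, and 19 further genes listed by name. Of the 55 genes so listed, 53 had a probe set annotated to that gene alone, 36 of them collagen chains and 17 others, out of 12394 such genes on the array. Fbn1 and Loxl2 were not analysed here. Each gene was represented by its probe set of highest mean, and 43 of the 53 exceeded a low-value limit of 35.4 signal units on at least 3 of the 16 arrays and entered the tests. The remaining 10 (Col2a1, Col4a3, Col4a4, Col10a1, Col11a2, Col13a1, Col19a1, Col20a1, Col22a1 and Col25a1) were not tested.

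Expression had been measured on 16 Affymetrix arrays, each from the total RNA of 1 tissue sample of the FVB/N background: 3 normal mammary glands (gland_1, gland_4 and gland_6), 7 mammary tumours of mice carrying constitutively active STAT5 (STAT5ca), and 6 mammary tumours of mice carrying STAT5 truncated at its C-terminus (STAT5Δ750). STAT5 is the transcription factor that carries the prolactin signal in the mammary epithelium, and its C-terminus holds the transactivation domain. The labels gave no age, reproductive stage, transgene promoter or treatment, and none states that the tumours came from separate mice, so p-values measure the spread between these samples. Tumours keep the numbers of their labels below.

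Collagens are trimers of polypeptide chains. Fibrillar collagens (types I, III, V and XI) assemble into the banded fibrils that give tissue its tensile strength, type IV forms the sheet under epithelia and around vessels, type VI forms beaded microfilaments, and fibril-associated collagens and small leucine-rich proteoglycans coat fibrils and set their spacing. In the mammary gland this matrix is made mainly by stromal fibroblasts, and a reaction of fibroblasts around carcinoma cells, with abundant type I collagen, is common in mammary tumours.

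The matrix genes did not move as a block. Against the glands, Col1a1, Col12a1 and Olfml3 rose in both tumour types, Dpt fell in both, and Dcn and Fap fell in STAT5ca tumours. For neither Dcn nor Fap was a difference between the tumour types called. In STAT5ca tumours 6 of 43 members passed an adjusted p of 0.05 (limma, Benjamini-Hochberg over 9252 genes), 3 higher and 3 lower, where 19.9% of all genes passed, 6.72% higher and 13.2% lower. In STAT5Δ750 tumours 4 of 43 passed, 3 higher and 1 lower, where 21.6% of all genes passed, 7.61% higher and 14% lower. The share of members that changed was thus no larger than that of all genes. Under 29 alternatives for each comparison it exceeded that of all genes in 3, all in STAT5Δ750 tumours: with only the 2 groups compared (46.5% of members, 31.3% of all genes), with array weights (51.2% and 48.2%), and with median scaling and no STAT5ca_177 (30.2% and 26.3%). The median change of the tested members, on the log2(signal + 8) scale used for every change below, was 0.22 in STAT5ca tumours and 0.76 in STAT5Δ750 tumours, beside -0.02 and -0.04 over all genes tested. Both comparisons used the same 3 glands.

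**Figure D1:**
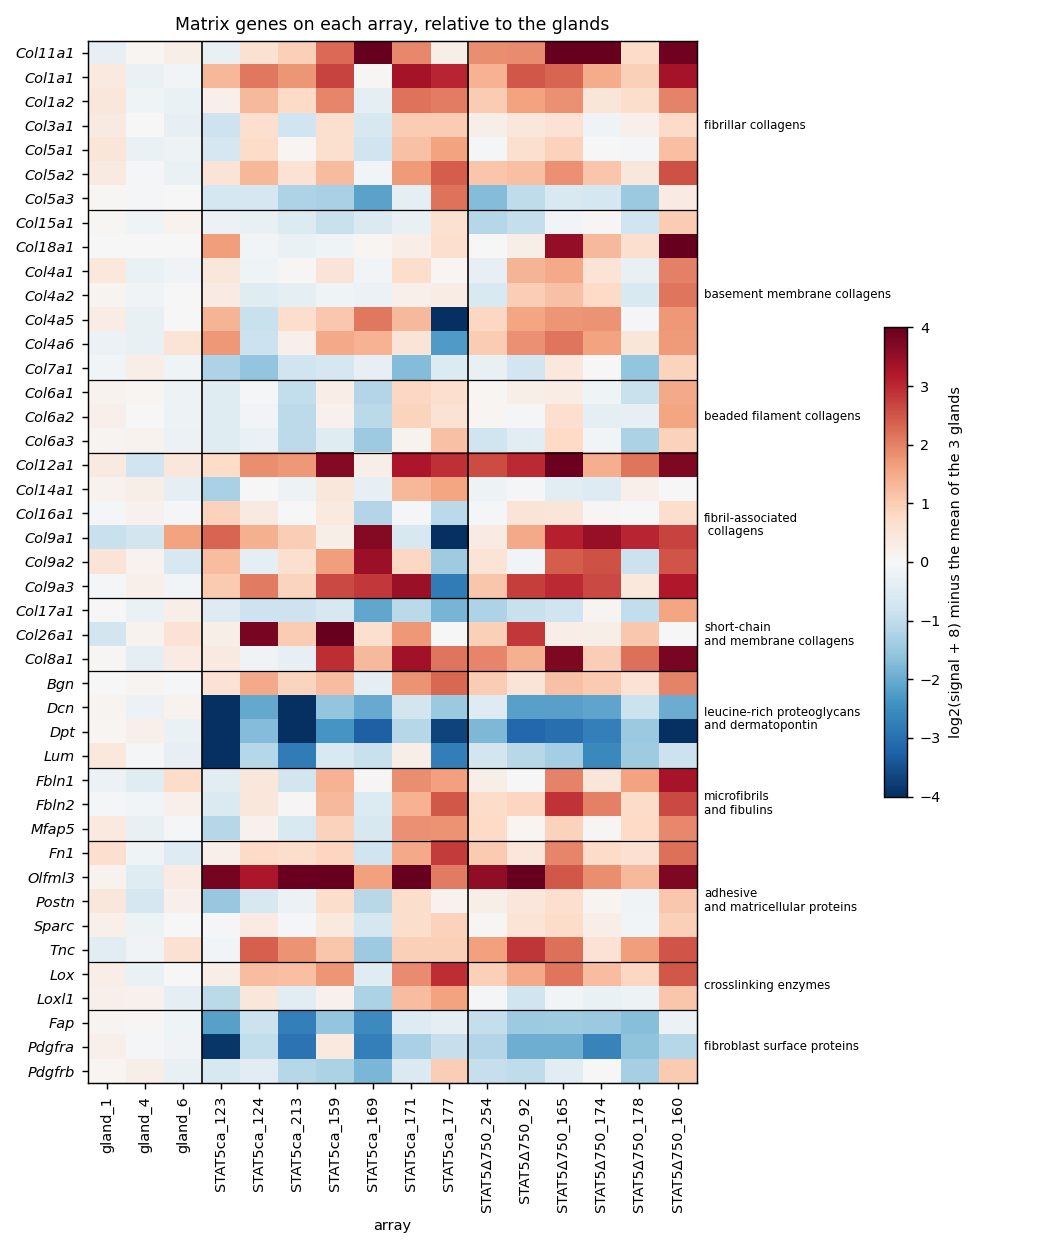
Each row is a tested member, grouped by role, and each column an array; colour is log2(signal + 8) minus the mean of the 3 glands, with values beyond 4 in either direction drawn at the end of the scale. Col1a1, Col12a1 and Olfml3 are red in most tumour columns, Dcn, Dpt, Fap and Pdgfra blue in most, and column STAT5Δ750_160 is red for most members.

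These counts moved with the scaling. The deposited arrays share a trimmed mean of 250.08 to 250.09, and their medians ran from 57.3 to 90.7. Under the deposited scaling 33.7% of the genes called in STAT5ca tumours were higher, and this share was 59.7% when arrays were scaled to 1 median and 43.4% after quantile normalization. In STAT5Δ750 tumours the corresponding shares were 35.2%, 47.3% and 41.3%. Scaling to the median moved the median of all genes to 0.25 in STAT5ca tumours and 0.08 in STAT5Δ750 tumours, and gave 5 members higher and 2 lower in the first and 5 higher and 1 lower in the second.

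The tumour STAT5ca_177 and the glands stood apart in ways that touch these genes. STAT5ca_177 had a signal of 25.3 for the luminal keratin Krt8, against 3836.1 to 5375.9 in the other 6 STAT5ca tumours, and its 11 luminal epithelial markers summed to 817.9, against a median of 25990 over the STAT5ca tumours. Its 13 macrophage markers summed to 53196, the highest of the 16 arrays, against a median of 14390 in that tumour type. Luminal markers were thus nearly absent from a sample labelled as a mammary tumour, and values without it are given where leaving it out gave or ended a call. Signals of muscle and fat markers were higher in the glands than in the tumours. The 12 skeletal muscle markers summed to 69550 to 81650 in the glands and to 149 to 21970 in the tumours, with 12 and 11 of 12 lower in STAT5ca and STAT5Δ750 tumours. The 9 adipocyte markers summed to 17360 to 19180 in the glands and 623.8 to 4606 in the tumours, with 9 of 9 lower in either type. Of 7 T cell markers all were lower in either type, of 5 B cell markers 4 and 5 were lower, of 13 macrophage markers 1 was higher in STAT5ca and 1 lower in STAT5Δ750 tumours, and of 11 luminal markers 1 and 3 were higher. The signal ratio of 3' to 5' actin probe sets, which rises as RNA is degraded, was 1.07 to 1.25 in the glands and 1.27 to 5.38 in the tumours, higher in every tumour than in every gland. The same ratio for Gapdh did not separate them: it was 0.841 to 1.03 in the glands and 0.757 to 1.71 in the tumours, above every gland in 3 of 13. Changes of members with the actin ratio as a covariate are given below where they end a call, and lost calls of other named genes are stated. The covariate also gave calls absent without it: Col8a1 in both tumour types, and Fbln1 and Fbln2 in STAT5Δ750 tumours. With the Gapdh ratio as a covariate the 6 members called in STAT5ca tumours and the 4 called in STAT5Δ750 tumours all passed. In bulk tissue, fewer cells of a type and less RNA per cell cannot be told apart.

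Promoter sequence is shown for 3 members: Col1a2, a chain of the type I collagen trimer, Olfml3, the member with the largest called rise, and Dpt, the member with the largest called fall. Each is the 250 bases before the gene's start in the RefSeq annotation of GRCm38.p6, on the gene's own strand, at chr6:4505368-4505617 (plus strand) for Col1a2, chr3:103738002-103738251 (minus strand) for Olfml3 and chr1:164796413-164796662 (plus strand) for Dpt. Capitals mark matches to any of 3 motifs: TTCNNNGAA, the palindrome that STAT5 binds, CCAAT, the box bound by NF-Y, and TATAAA.
Col1a2: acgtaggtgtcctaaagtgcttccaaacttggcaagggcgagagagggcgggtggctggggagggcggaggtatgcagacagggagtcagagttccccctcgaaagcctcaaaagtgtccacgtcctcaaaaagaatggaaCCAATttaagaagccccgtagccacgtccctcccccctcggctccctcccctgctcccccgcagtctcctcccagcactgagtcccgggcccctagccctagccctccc
Olfml3: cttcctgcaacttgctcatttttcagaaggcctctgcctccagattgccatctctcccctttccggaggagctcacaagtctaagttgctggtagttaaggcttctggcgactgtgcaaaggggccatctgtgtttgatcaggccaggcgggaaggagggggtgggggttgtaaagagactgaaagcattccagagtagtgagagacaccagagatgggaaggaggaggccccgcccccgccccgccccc
Dpt: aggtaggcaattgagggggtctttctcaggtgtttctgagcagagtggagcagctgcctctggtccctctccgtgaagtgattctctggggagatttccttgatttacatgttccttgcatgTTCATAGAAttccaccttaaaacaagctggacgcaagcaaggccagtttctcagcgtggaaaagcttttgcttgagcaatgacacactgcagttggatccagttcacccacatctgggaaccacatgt

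RefSeq windows were found for 36 of the 53 members. With both strands searched, TTCNNNGAA was present in 7.02% of all 32851 windows of that length and in 1 of the members' 42 windows, that of Dpt, a gene that fell in tumours of both types. CCAAT was present in 33.8% of all windows and in 12 of the members' 42, among them that of Col1a2. TATAAA was present in 12.4% of all windows and in 8 of the members' 42, among them those of Col3a1, Postn and Tnc. The window of Olfml3 held none of the 3. These are matches of letters and say nothing on binding.

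Among the 7 fibrillar collagens tested only Col1a1 passed, and it rose in both tumour types. Col1a1, which encodes the alpha-1 chain of type I collagen, had signals of 221.1, 139.4 and 154.7 in the glands. In STAT5ca tumours it ran from 175.9 through a median of 748.9 to 1759.5, and in STAT5Δ750 tumours from 334.5 through 679.1 to 1759.4. Every tumour but STAT5ca_169 lay above every gland. The change was 2.05 ± 0.61 (SE; adjusted p = 0.0264, limma, 7 tumours against 3 glands) in STAT5ca tumours and 2.00 ± 0.62 (adjusted p = 0.0324, 6 against 3) in STAT5Δ750 tumours, about 4.13-fold and 3.99-fold. Its second probe set gave 1.76 and 1.92. Leaving out any 1 of the 3 glands ended the call in both comparisons, with adjusted p up to 0.119 and 0.13, as did leaving out STAT5Δ750_92, STAT5Δ750_165 or STAT5Δ750_160 in the second. With the actin ratio as a covariate the change in STAT5ca tumours was 2.45 (adjusted p = 0.0793).

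Col1a2, the alpha-2 chain, had gland signals of 1095, 711.5 and 666.4. It ran from 631.4 through 2000.1 to 3662.8 in STAT5ca tumours and from 1116.7 through 2051.3 to 3192.2 in STAT5Δ750 tumours. All 6 STAT5Δ750 tumours were above the glands, while STAT5ca_169 and STAT5ca_123 lay within or below their range. The differences of 1.16 ± 0.51 (adjusted p = 0.125) and 1.27 ± 0.52 (adjusted p = 0.0953, limma) did not pass. A second probe set gave 1.81 and 2.01, and with the mean of probe sets both differences passed, at 1.48 and 1.64 (adjusted p = 0.0421 and 0.029). The first also passed after median scaling, without STAT5ca_169 and with array weights, and the second with only the 2 groups compared, with array weights, and with median scaling and no STAT5ca_177.

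Col3a1, the chain of type III collagen, overlapped between glands and tumours. Its gland signals were 3085.2, 2363.4 and 1907.3, and it ran from 1339.1 through 3775 to 4892.3 in STAT5ca tumours and from 2188.6 through 3077.15 to 4106.8 in STAT5Δ750 tumours. The glands lay inside the range of the STAT5ca tumours and overlapped the STAT5Δ750 tumours. The differences were 0.15 (95% interval -0.73 to 1.04) and 0.35 (-0.56 to 1.26), intervals that leave room for a change of about 2-fold in the tumours. A second probe set gave -0.20 and 0.04.

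Within each array, the type I chains stood higher relative to type III in every tumour than in any gland. The log2 value of Col1a1 minus that of Col3a1 was -4.01 to -3.56 in the glands, -3.08 to -1.23 in STAT5ca tumours and -3.03 to -1.22 in STAT5Δ750 tumours, a mean rise of 1.89 and 1.64 over glands. For Col1a2 minus Col3a1 the mean rise was 1.01 and 0.92, again with every tumour above every gland. For Col1a1 minus Col6a1, a chain of the type VI microfilaments, it was 2.18 and 1.82. For Col1a1 minus Dcn, a proteoglycan that coats fibrils, it was 4.55 and 3.63. These pairs were chosen after their values were seen and get no test. They show unequal change, and not that either partner stayed level.

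**Figure D2:**
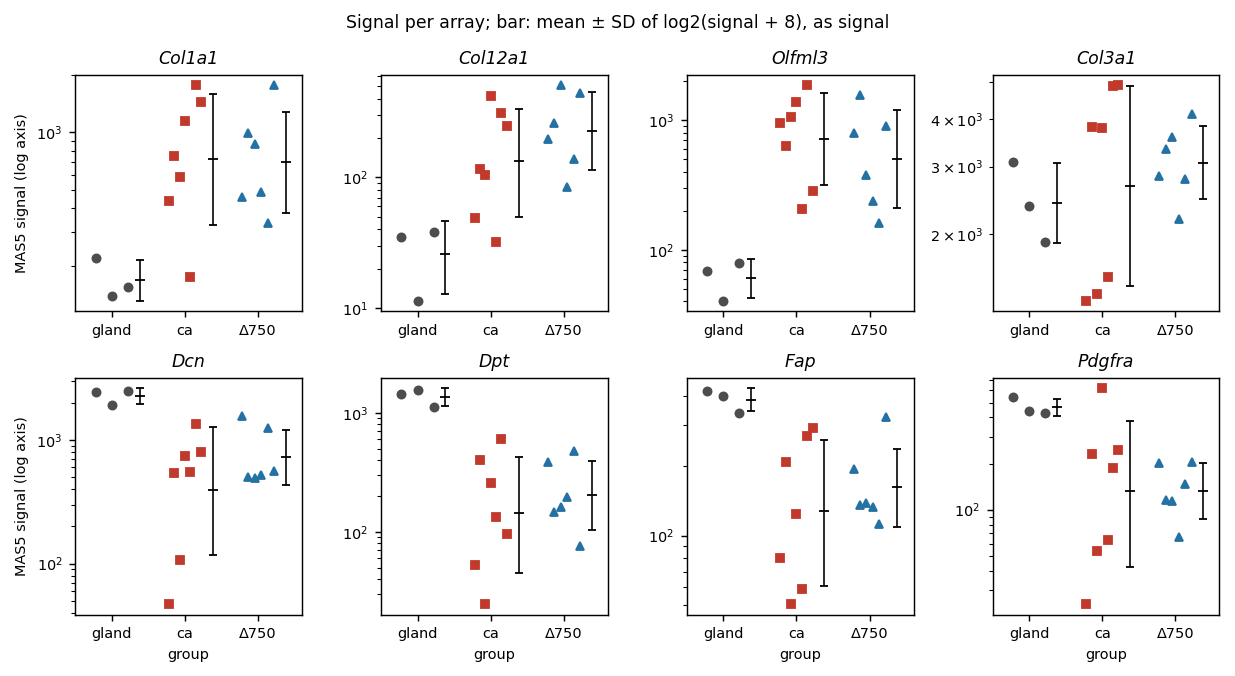
Signal of 8 members on each array on a log axis, by group (gland, STAT5ca and STAT5Δ750), each symbol an array; bars give the mean ± SD of log2(signal + 8), drawn as signal, for 3 glands, 7 STAT5ca and 6 STAT5Δ750 tumours. Tumours lie above the glands for Olfml3, with no overlap, and below them for Dcn, Dpt and Fap, while Col3a1 overlaps throughout.

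Type V collagen, which nucleates type I fibrils and limits their width, gave no call. Col5a2 had gland signals of 516.2, 371.9 and 326.4, a range of 371.4 to 2151.6 with a median of 976 in STAT5ca tumours, and a range of 543.5 to 2371.7 with a median of 897.8 in STAT5Δ750 tumours. Every STAT5Δ750 tumour was above the glands. Its differences were 1.10 ± 0.48 (adjusted p = 0.121) and 1.38 ± 0.49 (adjusted p = 0.0576), and the second passed without STAT5ca_177, at an adjusted p of 0.0264, and without STAT5ca_169, at 0.0402. Col5a1 differed by 0.39 and 0.45, and its dimmer probe sets gave 0.89 and 0.91, and 1.11 and 1.07. Col5a3 differed by -0.60 and -0.87. Col5a3 was at 161.4 to 179.1 in the glands, 33.0 to 131.4 in 6 STAT5ca tumours and 799.1 in STAT5ca_177. Without that tumour its difference in STAT5ca tumours was -1.07 (adjusted p = 0.0643).

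Col11a1, a minor fibrillar chain of cartilage that is also made by fibroblasts of some carcinomas, was below the low-value limit in the glands and uneven in the tumours. Its gland signals were 9.9, 15.5 and 18.2. It was at 1895.6 in STAT5ca_169 and at 10.1 to 98.5 in the other STAT5ca tumours. In STAT5Δ750 tumours it ran from 29.3 through 198.55 to 1281, all above the glands, with the highest in STAT5Δ750_174 and STAT5Δ750_165. The difference in STAT5Δ750 tumours was 3.24 ± 1.29 (adjusted p = 0.0856), and 0.0257 without STAT5ca_169. Col2a1, the main collagen of cartilage fibrils, exceeded the limit on 2 arrays only, at 248.9 in STAT5Δ750_165 and 61.4 in STAT5ca_159. Of 8 cartilage and bone markers on the array, 6 were at or below the limit on every array. The 2 others summed to 142.3 to 190.5 in the glands, 18.2 to 2162 in STAT5ca tumours and 175 to 1080 in STAT5Δ750 tumours.

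The basement membrane and anchoring collagens gave no call in 7 tested genes. Col4a1 and Col4a2 encode the chains of the most widespread type IV trimer. Col4a1 was at 1042.9, 650.9 and 709.6 in the glands, 690.6 to 1291.2 in STAT5ca tumours and 618.4 to 3218.1 in STAT5Δ750 tumours, with differences of 0.22 and 0.80 (adjusted p = 0.771 and 0.218). Col4a2 was at 446.4 to 536.9 in the glands, 347 to 626.4 in STAT5ca tumours and 320.9 to 2181.3 in STAT5Δ750 tumours, with differences of -0.06 and 0.65. The STAT5Δ750 tumours separated into 4 with Col4a2 at 867.6 or above and 2, STAT5Δ750_254 and STAT5Δ750_178, at 323.3 and 320.9. Col4a5 and Col4a6, partner chains of another type IV network, had STAT5ca medians of 583.8 and 117.2 beside gland medians of 272.5 and 65.8. In STAT5ca_177 they were at 7.5 and 10, their lowest of the 16 arrays. Without that tumour Col4a6 passed in STAT5Δ750 tumours, at an unchanged 1.46 (adjusted p = 0.0418).

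Col18a1, the parent chain of endostatin, was steady at 87.2 to 89.9 in the glands. In STAT5ca tumours 300.8 in STAT5ca_123 was the highest and the others lay at 71.9 to 146.2, while STAT5Δ750_160 and STAT5Δ750_165 reached 1686.2 and 1104.9 and the other STAT5Δ750 tumours 89.2 to 229.2. Its differences were 0.30 and 1.65 (adjusted p = 0.819 and 0.141). Col7a1, which forms the fibrils that anchor epithelium to stroma, was at 77 to 106.6 in the glands and 20.7 to 68.3 in STAT5ca tumours, below the glands in all 7, at -0.98 (adjusted p = 0.126). In STAT5Δ750 tumours it ran from 24.1 to 166.9, on both sides of the glands. Col15a1, of vessel and muscle basement membranes, differed by -0.32 and -0.33.

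The 3 chains of type VI collagen differed from the glands by -0.35 to -0.13 in STAT5ca tumours and by -0.15 to 0.26 in STAT5Δ750 tumours. Their intervals were wide, -1.14 to 0.88 for Col6a1 in STAT5ca tumours. Tumours differed among themselves by far more than they differed from the glands: Col6a1 was at 207 in STAT5ca_169 and 858.4 in STAT5ca_171, and at 251.3 in STAT5Δ750_178 and 1384.6 in STAT5Δ750_160, beside 415.1 to 520.3 in the glands.

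Of the fibril-associated collagens, Col12a1 rose in both tumour types. Its product sits on type I fibrils and bridges them to other matrix. Its gland signals were 35.2, 11.4 and 38, at or below the low-value limit of 35.4 in 2 of 3, so that the size of its change depends on the offset. It ran from 31.8 through 115.4 to 420.7 in STAT5ca tumours, with STAT5ca_169 the only one within the gland range, and from 84.7 through 228.15 to 507.2 in STAT5Δ750 tumours, all above the glands. The rise was 2.81 ± 0.71 (adjusted p = 0.0112, limma, 6 against 3) in STAT5Δ750 tumours and 2.06 ± 0.70 (adjusted p = 0.0479, 7 against 3) in STAT5ca tumours. The first call was lost only without gland_4, at an adjusted p of 0.0817, among 29 alternatives. The second was lost in 15 of 29, with an adjusted p up to 0.232: an offset of 32 (1.55, adjusted p = 0.07), no filter, the mean of probe sets, only the 2 groups compared, and leaving out any gland, STAT5ca_124, STAT5ca_213, STAT5ca_159, STAT5ca_171 or STAT5ca_177, or STAT5Δ750_254, STAT5Δ750_92 or STAT5Δ750_178.

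The type IX chains, which coat cartilage fibrils, were spread over a wide range in the tumours, and Col9a1 also in the glands. Col9a1 was at 222.1, 248.2 and 1298.9 in the glands, with gland_6 well above the other glands. In STAT5ca tumours it ran from 8.3 in STAT5ca_177 to 5442.9 in STAT5ca_169, and in STAT5Δ750 tumours from 531.6 to 4774.6. Col9a3 was at 61.9 to 78.2 in the glands, at 2.9 in STAT5ca_177 and at 131.1 to 820.2 in the other 6 STAT5ca tumours, and at 93.9 to 687.5 in STAT5Δ750 tumours. Apart from STAT5ca_177, every tumour was above every gland. Its differences were 1.45 and 2.19 (adjusted p = 0.34 and 0.142). Without STAT5ca_177 they were 2.15 and 2.19 and both passed (adjusted p = 0.019 and 0.0187). Col9a2 differed by 0.86 and 1.18, Col14a1 by 0.22 and -0.16, and Col16a1 by -0.09 and 0.28.

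Among the short-chain and membrane collagens, Col8a1, a network-forming chain of vessels and remodelling tissue, was at 0.7 to 6.3 in the glands, below the low-value limit. It was at 1.1 to 109.3 in STAT5ca tumours and 14.5 to 151.4 in STAT5Δ750 tumours, all of the latter above the glands. Its difference of 2.35 ± 0.82 in STAT5Δ750 tumours had an adjusted p of 0.0512 and passed in 13 of 28 alternatives, among them without STAT5ca_177 (0.0434). In STAT5ca tumours the difference was 1.38 (adjusted p = 0.247). It passed only with array weights (1.51, adjusted p = 0.0452) and with the actin ratio as a covariate (3.83, adjusted p = 0.00109). Col17a1, the hemidesmosome collagen of basal epithelium, was at 27.2 to 42.3 in the glands and 2.1 to 21.7 in STAT5ca tumours, below the glands in all 7 (difference -1.12, adjusted p = 0.135). Only 1 gland and 0 STAT5ca tumours exceeded the low-value limit, so the size of this difference depends on the offset. In STAT5Δ750_160 it was at 118.5. The 5 basal epithelial markers tested moved with that array, summing to 4053.5 there and to a median of 776.3 over the STAT5Δ750 tumours, and their part in the value was not tested. Col26a1 was at 183.4 and 238 in STAT5ca_124 and STAT5ca_159, at 89.6 in STAT5Δ750_92 and at 37.4 or below on the other arrays.

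Of the 3 small proteoglycans and dermatopontin, Dpt and Dcn passed the test, both as lower in tumours. Dpt encodes dermatopontin, which binds decorin and aids the assembly of collagen fibrils. Its gland signals were 1425.9, 1547.7 and 1121.9. It ran from 24.8 through 132.4 to 604.5 in STAT5ca tumours and from 76.5 through 178.4 to 474 in STAT5Δ750 tumours, so that the groups did not overlap. It fell by 3.16 ± 0.75 (adjusted p = 0.00759, limma, 7 against 3) in STAT5ca tumours and by 2.70 ± 0.77 (adjusted p = 0.0215, 6 against 3) in STAT5Δ750 tumours. With the actin ratio as a covariate the changes were -2.10 and -2.06 and neither passed (adjusted p = 0.191 and 0.101). In STAT5Δ750 tumours leaving out any 1 gland also ended the call, at adjusted p up to 0.0917.

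Dcn, the proteoglycan decorin that binds type I fibrils and sequesters TGF-beta, had gland signals of 2434.8, 1901 and 2468.7. It ran from 47.3 through 549.1 to 1348.5 in STAT5ca tumours and from 496.9 through 540.05 to 1574.8 in STAT5Δ750 tumours, below the glands in all 13. It fell by 2.50 ± 0.78 (adjusted p = 0.0341) in STAT5ca tumours. In STAT5Δ750 tumours the difference was -1.63 ± 0.80 (adjusted p = 0.16). The difference between the tumour types was -0.87 (95% interval -2.22 to 0.47, adjusted p = 0.895), so the call in 1 type is no sign that they differ. The 2 lowest tumours, STAT5ca_123 at 47.3 and STAT5ca_213 at 106.4, had actin ratios of 3.72 and 5.23, and STAT5ca_124, with the highest ratio of 5.38, had Dcn at 537.7. With the ratio as a covariate the change was -0.95 (adjusted p = 0.577). The call also ended with only the 2 groups compared (0.0826), and without any 1 gland or STAT5ca_213, at adjusted p up to 0.115.

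Lum, lumican, a relative of decorin, was at 652 to 1101.9 in the glands, 43.5 to 968.4 in STAT5ca tumours and 131.8 to 491.9 in STAT5Δ750 tumours, the last all below the glands. Its differences of -1.71 and -1.34 did not pass (adjusted p = 0.105 and 0.201). The first passed without STAT5ca_171 (-2.03, adjusted p = 0.0432) and with array weights (0.0157). The second passed with array weights and with only the 2 groups compared. Bgn, biglycan, of the same family, lay on the other side. It was at 616.1 to 702.6 in the glands, 500.5 to 3250.1 with a median of 1550.2 in STAT5ca tumours, and 948.7 to 2600.9 in STAT5Δ750 tumours, all of the last above the glands. Its differences of 1.13 ± 0.44 and 1.05 ± 0.46 did not pass (adjusted p = 0.086 and 0.114), and both did without STAT5ca_169, at 0.0133 and 0.0492. The first also passed after median scaling (0.0372), and the second with only the 2 groups compared (0.0257).

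**Figure D3:**
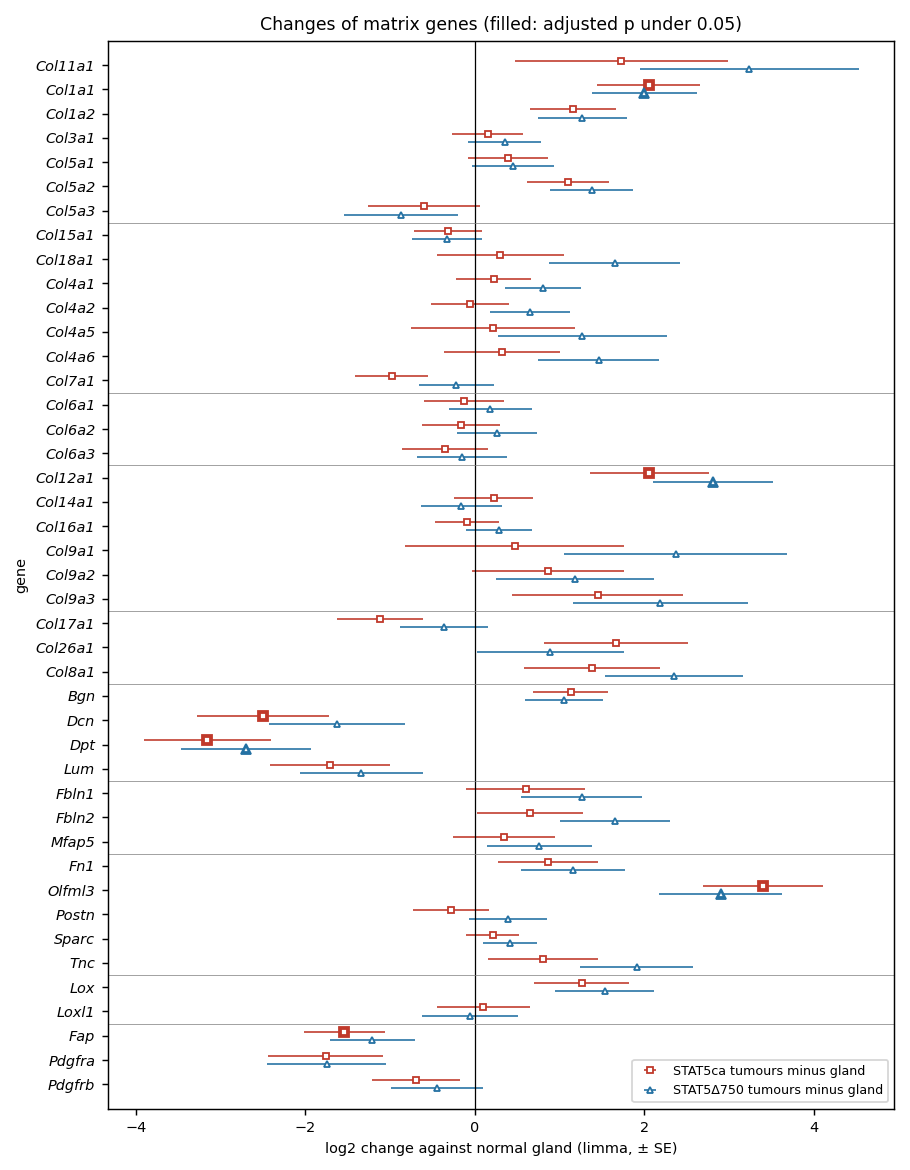
Change of each tested member against the normal glands, as log2(signal + 8) ± SE from limma, for STAT5ca (squares, n = 7 against 3) and STAT5Δ750 tumours (triangles, n = 6 against 3), grouped by role. Filled symbols passed an adjusted p of 0.05: 6 members in STAT5ca and 4 in STAT5Δ750 tumours, on both sides of 0.

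Olfml3 rose more than any other member that passed. It encodes a secreted olfactomedin-domain glycoprotein, and its gland signals were 68.3, 40.6 and 79. It ran from 205.1 through 958 to 1855.3 in STAT5ca tumours and from 160.8 through 583.6 to 1557.6 in STAT5Δ750 tumours, above the glands in all 13. The rise was 3.40 ± 0.71 (adjusted p = 0.00313) and 2.90 ± 0.73 (adjusted p = 0.0103, limma), or 10.6-fold and 7.49-fold. The first call was lost only with the actin ratio as a covariate, at 2.89 (adjusted p = 0.0753), and the second only without gland_4 (adjusted p = 0.0648), among 29 alternatives each.

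The other adhesive and matricellular genes gave no call. Tnc, tenascin-C, an anti-adhesive glycoprotein of remodelling stroma, was at 295.3, 370.9 and 622.4 in the glands, 143.8 to 2163.5 with a median of 806.7 in STAT5ca tumours, and 616.3 to 3023.2 with a median of 1604.1 in STAT5Δ750 tumours. Its difference in the latter was 1.91 ± 0.67 (adjusted p = 0.0522), which passed in 12 of 29 alternatives, among them without STAT5ca_177 (adjusted p = 0.047). Fn1, fibronectin, differed by 0.86 and 1.16 (adjusted p = 0.334 and 0.185), with its highest signal, 6157.1, in STAT5ca_177. Postn, periostin, differed by -0.28 and 0.39 and Sparc, a collagen-binding glycoprotein, by 0.21 (95% interval -0.45 to 0.87) and 0.41 (-0.27 to 1.08). A second Sparc probe set gave 0.34 and 1.16, the latter beyond that interval.

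The microfibril genes and the crosslinking enzymes also gave no call. Fbln1 and Fbln2, fibulins that bridge matrix proteins, differed by 0.60 and 0.65 in STAT5ca tumours and by 1.26 and 1.65 in STAT5Δ750 tumours, where Fbln2 was above the glands in all 6 (191.9 to 884.3 against 103.2 to 129.9) at an adjusted p of 0.0826, and 0.0373 without STAT5ca_177. Mfap5, a microfibril glycoprotein, differed by 0.34 and 0.76. Lox, the oxidase that starts the crosslinking of collagen, was at 179.1, 120.9 and 149 in the glands, 103.6 to 1199.1 in STAT5ca tumours and 269.3 to 861 in STAT5Δ750 tumours. Every STAT5Δ750 tumour was above the glands, and its differences were 1.26 and 1.53 (adjusted p = 0.132 and 0.0706). The second passed without STAT5ca_177, at 0.028. Its relative Loxl1 differed by 0.10 and -0.06.

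Of the 3 fibroblast surface genes only Fap passed, and only in STAT5ca tumours. It encodes a membrane protease of activated fibroblasts, and its gland signals were 421.6, 401.9 and 339.9. It ran from 50.8 through 123.8 to 291.6 in STAT5ca tumours and from 112.3 through 137.5 to 324.2 in STAT5Δ750 tumours, below the glands in all 13. It fell by 1.54 ± 0.48 (adjusted p = 0.0342) in STAT5ca tumours, and the difference was -1.21 ± 0.50 (adjusted p = 0.0923) in STAT5Δ750 tumours. The first call ended after median scaling (-1.26, adjusted p = 0.0774), with only the 2 groups compared (0.0761) and with the actin ratio as a covariate (-1.11, adjusted p = 0.315). It also ended without any 1 gland or STAT5ca_123, STAT5ca_213, STAT5ca_159 or STAT5ca_169, at adjusted p up to 0.123. Pdgfra, the PDGF receptor of most stromal fibroblasts, was at 541, 441.3 and 426.5 in the glands. It ran from 24.3 through 185.9 to 618.2 in STAT5ca tumours, where STAT5ca_159 exceeded every gland, and from 66.3 through 131 to 206.2 in STAT5Δ750 tumours. Its differences were -1.76 ± 0.68 and -1.75 ± 0.70 (adjusted p = 0.081 and 0.0848). The first passed without STAT5ca_159 (adjusted p = 0.0196) or STAT5ca_177 (-1.91, 0.0495), and the second without STAT5ca_123 (0.0444) or STAT5ca_159 (0.0445). Pdgfrb, the receptor shared by fibroblasts and pericytes, differed by -0.70 and -0.45.

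The fall of Dpt, Dcn and Fap went with lower levels of other stromal lists. Of 14 further fibroblast genes, 6 fell in STAT5ca tumours, and in STAT5Δ750 tumours 5 fell and 1 rose, with median changes of -1.26 and -1.02 beside -0.02 and -0.04 over all genes. Their summed signal was 13670 to 15750 in the glands, 2336 to 18700 in STAT5ca tumours, highest in STAT5ca_177, and 4447 to 11420 in STAT5Δ750 tumours. Thy1 and Cd34 are surface proteins of fibroblast subsets, and also of T cells (Thy1) and endothelium (Cd34). They fell by 2.22 and 1.64 in STAT5ca tumours (adjusted p = 0.000741 and 0.000605) and by 1.90 and 1.20 in STAT5Δ750 tumours (adjusted p = 0.00321 and 0.00689). Vcan, versican, a large proteoglycan, rose by 2.85 ± 0.75 in STAT5Δ750 tumours (adjusted p = 0.0139), a call lost without gland_4 (adjusted p = 0.0706). Of 10 pericyte and smooth muscle markers 6 and 5 fell, and their sum was 6412 to 7110 in the glands and 1572 to 3735 in the tumours. Of 12 endothelial markers 7 fell in either type, and their sum was 3168 to 4137 in the glands and 625.3 to 2031 in the tumours. The part of these cells, of T cells, and of the fat and muscle of the glands, in the changes of these genes and of the members was not tested.

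Genes that make, sense or cut collagen were called about as often as all genes or less. The share called in STAT5ca tumours was 20% of processing and of degradation genes and 15% of signalling genes, beside 19.9% of all genes, and in STAT5Δ750 tumours 13.3%, 20% and 15%, beside 21.6%. Median changes in STAT5ca and STAT5Δ750 tumours were 0.43 and 0.71 for processing, 0.36 and 0.66 for receptors, -0.18 and 0.01 for signalling and 0.05 and 0.37 for degradation. Of 15 genes of collagen processing, P4hb, a subunit of prolyl 4-hydroxylase, and Ppib, a prolyl isomerase of the same pathway, rose by 0.89 ± 0.21 and 0.76 ± 0.22 in STAT5ca tumours (adjusted p = 0.00767 and 0.0211) and by 0.83 ± 0.22 and 0.71 ± 0.22 in STAT5Δ750 tumours (adjusted p = 0.0136 and 0.0336). These calls ended with the actin ratio as a covariate, at adjusted p up to 0.281, and without gland_1 or gland_4, at up to 0.156. That of Ppib in STAT5Δ750 tumours also ended with the mean of probe sets and with the Gapdh ratio as a covariate. It was lost, too, without STAT5Δ750_254, STAT5Δ750_92, STAT5Δ750_165 or STAT5Δ750_174. Pcolce2, an enhancer of procollagen cleavage, fell by 1.68 in STAT5ca tumours (adjusted p = 0.0171). That call ended without gland_1 or gland_4 (up to 0.0862) and with the actin ratio as a covariate (0.39). None of 4 collagen receptors passed in either comparison. Of 20 genes of TGF-beta and PDGF signalling, 1 was higher and 2 were lower in either type. The 1 higher was Ccn2, a matricellular target of TGF-beta, which rose by 1.49 ± 0.42 (adjusted p = 0.0213) and 2.11 ± 0.44 (adjusted p = 0.00311). The first call was lost without gland_1 or gland_4, at adjusted p up to 0.115, and with only the 2 groups compared (0.066). The 2 lower were Ltbp4, which binds latent TGF-beta, at -1.08 and -0.98 (adjusted p = 0.03 and 0.0472), and the receptor Tgfbr2, at -0.91 and -0.83 (adjusted p = 0.031 and 0.0491). Calls of both genes ended without any 1 gland and without some single tumours, at adjusted p up to 0.158 for Ltbp4 and 0.141 for Tgfbr2. For Ltbp4 in STAT5ca tumours the only such tumour was STAT5ca_213. Calls of both genes also ended after median scaling, with the actin ratio as a covariate and in some further settings. In these the adjusted p was up to 0.354 for Ltbp4 and 0.425 for Tgfbr2.

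Of 10 genes of collagen degradation 2 rose. Mmp13, a collagenase, rose by 4.40 ± 1.30 and 4.71 ± 1.33 (adjusted p = 0.0257 and 0.0201), and Timp1, an inhibitor of such enzymes, by 2.00 ± 0.63 and 2.33 ± 0.65 (adjusted p = 0.0355 and 0.0186). Both calls of Mmp13 ended without any 1 gland (adjusted p up to 0.0937). They also ended with the actin ratio as a covariate, and that in STAT5ca tumours with an offset of 32, at up to 0.199. Those of Timp1 ended without gland_1 or gland_4 (up to 0.137). In STAT5ca tumours the Timp1 call also ended with the actin ratio as a covariate (0.0926) and without gland_6, STAT5ca_123, STAT5ca_124 or STAT5ca_171. Of 13 other basement membrane genes 1 fell, Lama2, the laminin chain of muscle and stromal basement membranes, by 1.80 ± 0.29 and 1.26 ± 0.30 (adjusted p = 0.000449 and 0.00748, the second 0.0523 without gland_1). Among 9 elastic fibre genes, 2 passed as lower in STAT5ca tumours and 1 in STAT5Δ750 tumours.

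Between the 2 tumour types no gene passed (limma, 0 of 9252, 0%), and 525 genes had an unadjusted p under 0.05, or 5.67%. Among the members 2 of 43 had one, Col18a1 at -1.34 (STAT5ca minus STAT5Δ750, 95% interval -2.64 to -0.05) and Col7a1 at -0.76 (-1.50 to -0.02). The sign was nonetheless uneven: 35 of 43 members were lower in STAT5ca tumours, or 81.4%, where 50.4% of all genes tested were, and 21 of 26 collagen chains. The median difference over the members was -0.36 beside 0.00 over all genes. It was -0.15 without STAT5Δ750_160, -0.21 under median scaling beside 0.15 over all genes, and -0.11 with the actin ratio as a covariate. The members share arrays and are not independent of each other. For Col1a1 the difference was 0.05 (-0.99 to 1.09), so that a change of about 2-fold in either direction lies within the interval. For Col12a1 it was -0.75 (-1.94 to 0.44), for Olfml3 0.50 (-0.72 to 1.71), for Tnc -1.11 (-2.22 to 0.01) and for Col9a1 -1.89 (-4.11 to 0.32).

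Tumours of 1 type differed widely. The number of members above the highest gland ran from 10 of 43 in STAT5ca_169 to 36 in STAT5Δ750_160, where 38.7% and 37.9% of all genes were. STAT5Δ750_160 had the highest signal of its 6 tumours for 29 of 43 members, while 17.3% of all genes were highest there, and STAT5Δ750_178 had the lowest for 18, as for 20.8% of all genes. In STAT5ca tumours STAT5ca_169 was lowest for 19 members, as for 16% of all genes, among them Col1a1, Col1a2, Col6a1, Sparc and Lox, and highest for Col11a1, Col9a1, Col9a2, Col4a5 and Col7a1. Its 14 further fibroblast genes summed to 3949 and its endothelial markers to 625.3, the lowest endothelial sum of the 16 arrays. STAT5ca_177 was highest for 15 members, among them Fn1, Col5a3, Lox, Bgn and Sparc, and lowest for 6, Col4a5, Col4a6, Col9a1, Col9a2, Col9a3 and Col26a1. Over all genes it was highest for 21.9% and lowest for 34.1%.

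**Figure D4:**
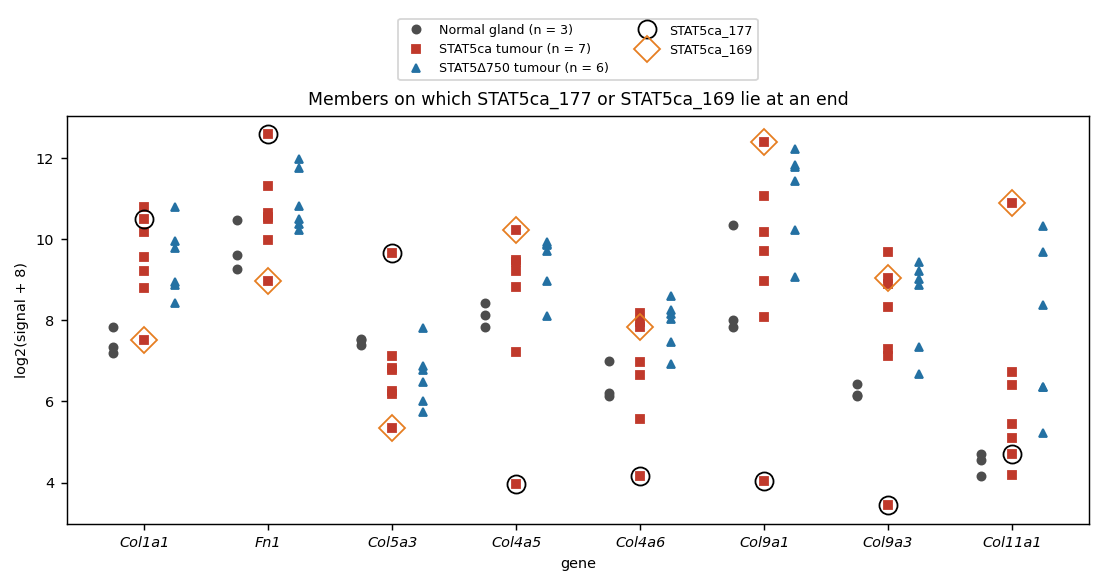
Log2(signal + 8) of 8 members on all 16 arrays, by group, with STAT5ca_177 ringed and STAT5ca_169 in a diamond. STAT5ca_177 is highest of its type for Fn1 and Col5a3 and lowest for Col4a5, Col4a6, Col9a1 and Col9a3, and STAT5ca_169 is lowest for Col1a1, Fn1 and Col5a3 and highest for Col11a1 and Col9a1.

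Chains of the same trimer, and other pairs chosen for a known relation, were followed over the 13 tumours. Correlations were computed on log2(signal + 8) for 14 pairs with permutation p-values from 100000 draws, and p-values were adjusted over the 14. Col1a1 and Col1a2 had a Pearson r of 0.95 and a Spearman rho of 0.95 (adjusted permutation p = 7e-05 for each), and r was 0.98 in STAT5ca and 0.89 in STAT5Δ750 tumours alone. Without STAT5ca_169 and STAT5ca_171, the 2 tumours farthest from the median of Col1a1, r was 0.90. Col6a1 and Col6a2 had r = 0.96 and rho = 0.97, and Col5a1 and Col5a2 r = 0.92 and rho = 0.94. Col4a1 and Col4a2, which share a promoter region and are read in opposite directions, had r = 0.94 and rho = 0.93 over all tumours, 0.97 in STAT5Δ750 and 0.61 in STAT5ca tumours, where the range was narrow (exact permutation p = 0.147 in the latter).

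For the other pairs r ran from 0.57 to 0.94. Col6a1 and Col6a3 had r = 0.84 and rho = 0.86. Col9a1 and Col9a2 had r = 0.63 and rho = 0.59 (adjusted permutation p = 0.0197 and 0.0409), and without STAT5ca_177 and STAT5ca_169 r was 0.30, so the relation rests on those tumours. Dcn and Lum, neighbours in the genome, had r = 0.77 and rho = 0.63, and 0.34 without STAT5ca_123 and STAT5ca_213, so it rests on those. Col3a1 and Col5a2, also neighbours, had r = 0.82 and rho = 0.88. Col1a1 followed its crosslinker Lox (r = 0.90, rho = 0.91) and its ligand Sparc (r = 0.94, rho = 0.92) over the tumours. Its r with Col3a1 was 0.78 (rho = 0.84). Its r with Pdgfrb was 0.65 (rho = 0.55), with Pdgfra 0.57 (rho = 0.59) and with Col4a1 0.59 (rho = 0.65), and with Col4a1 it was 0.95 in STAT5Δ750 and 0.52 in STAT5ca tumours. Adjusted permutation p for r was at most 0.0424 over the 14 pairs, and for rho at most 0.0523. Each pair shares arrays and their scaling.

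**Figure D5:**
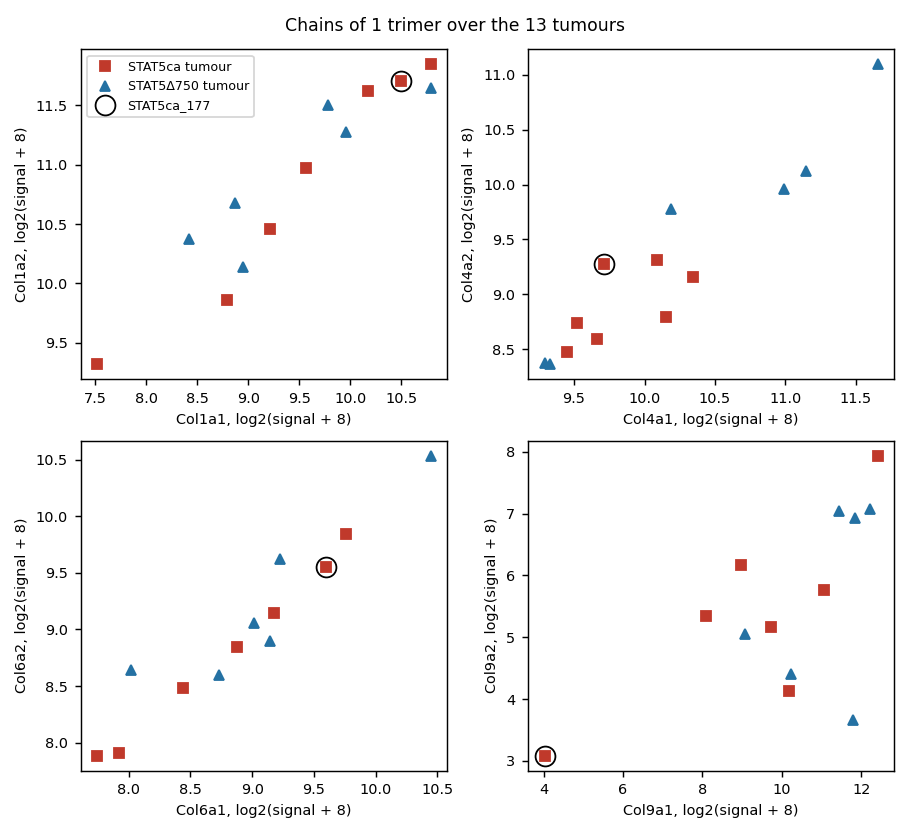
Log2(signal + 8) of partner chains over the 13 tumours, STAT5ca as squares (n = 7) and STAT5Δ750 as triangles (n = 6), with STAT5ca_177 ringed. Col1a1 with Col1a2, Col4a1 with Col4a2 and Col6a1 with Col6a2 lie along a line (r = 0.95, 0.94 and 0.96), while Col9a1 with Col9a2 is scattered (r = 0.63) with STAT5ca_177 at its lower end.

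Groups that did not overlap were counted for all 43 members. In STAT5ca tumours 1 member, Olfml3, was above every gland in all 7 tumours, as were 6.72% of all genes, and 5 (Dpt, Dcn, Fap, Col7a1 and Col17a1) were below every gland, as were 13.3%. Of these, Col17a1 was below the low-value limit in all 7. In STAT5Δ750 tumours 11 members were above every gland in all 6 (Col1a1, Col1a2, Col5a2, Col11a1, Col12a1, Col8a1, Col9a3, Olfml3, Bgn, Lox and Fbln2), as were 14.4% of all genes, and 5 (Dpt, Dcn, Lum, Fap and Pdgfra) were below, as were 20.3%. Of the 22 members with 2 or more probe sets, above the low-value limit on at least 3 arrays, those probe sets gave 1 sign of change in 20 for STAT5ca tumours, the others being Col3a1 and Fbln1, and in 22 for STAT5Δ750 tumours. With dimmer probe sets included, Col5a3, Col9a3 and Fn1 also had probe sets of opposite sign in both comparisons.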

How the data were processed

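The authors deposited MAS5 signal intensity per probe set, as the submitters' processing notes name MAS5; version and scaling step are not given in the sources used here, and each array's 2% trimmed mean, 250.08 to 250.09, was found from the values. Biotinylated cRNA had been hybridised to 1-colour arrays, per the labels' protocols. Of 22690 probe sets, 20393 carried 1 gene symbol, 691 several and 1606 none. Intensities were kept as deposited, 8 was added and log2 taken. Genes above 35.4 (the 40th percentile) on 3 or more arrays were tested (9252) in 1 limma 3.58.1 model of 3 groups (R 4.3.3), with Benjamini-Hochberg adjustment and a threshold of 0.05, and correlations in Python 3.11.15. The fit was tested on simulated data. Members, lists and named genes (every tested member, and some called genes of the lists) were chosen with earlier results of these data known. The number of arrays limits precision. Other scalings, offsets, filters, probe set rules, weights, covariates and left-out arrays were tried. Promoter windows come from RefSeq.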

Additional observations from a re-analysis of the deposited data

Results flagged for a closer look

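In 86 sets of values (43 tested members in each tumour type), 5 held a tumour that stood far from the others of its type, and chance alone gives such a value in about 1 in 20 sets. Col11a1, the minor fibrillar chain, was at 1895.6 in STAT5ca_169 and at 10.1 to 98.5 in the other STAT5ca tumours. STAT5ca_177, the tumour with little Krt8, accounted for 3: Col5a3, a type V chain, at 799.1 against 33.0 to 131.4, Col15a1 at 203.4 against 67.4 to 108.9, and Col9a3, a type IX chain, at 2.9 against 131.1 to 820.2. Loxl1, the elastic fibre crosslinker, was at 528.1 in STAT5Δ750_160 and at 134.7 to 225.2 in the other STAT5Δ750 tumours.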

How the results depend on the processing

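No change of a member reversed its sign under an alternative while called. In STAT5ca tumours against glands, genes called numbered 1844, 4818 with array weights, 921 with the actin ratio as a covariate, 3031 with median scaling and no STAT5ca_177 (an alternative chosen after seeing the data), and 959 to 2859 without 1 array. Members higher numbered 3, 5 under median scaling with or without STAT5ca_177, 11 with array weights, and 1 to 6 without 1 array; members lower numbered 3, 9 with array weights, 1 with only the 2 groups compared, 0 with the actin ratio, and 1 to 4 without 1 array. In STAT5Δ750 tumours genes called numbered 2000, 4463 with array weights, 2894 with only the 2 groups compared, and 953 to 2746 without 1 array. Members higher numbered 3, 5 under median scaling, 7 after quantile normalization, 16 with array weights, 15 with only the 2 groups compared, 6 with the actin ratio, 12 with median scaling and no STAT5ca_177, and 0 to 10 without 1 array; members lower numbered 1, 6, 5 and 0 with weights, 2 groups and actin, and 0 to 2 without 1 array. The low ends of the counts of genes came without a gland and the high ends without STAT5ca_177. Between the tumour types every alternative run called 0 genes. No paired analysis was possible because the groups share no replicate numbers. With 3 glands, and tumours of wide spread, differences of about 2-fold were often not detectable, and signals near the low-value limit, as for Col8a1 and Col11a1 in the glands, have folds that depend on the offset.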
